A study of Mus musculus with 2 samples.

Results

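The mitochondrial ribosomal protein genes were taken as the protein-coding genes of the annotation whose symbol is Mrpl or Mrps followed by a number. There are 78 of them, 49 named Mrpl and 29 named Mrps, among 18053 annotated genes with reads, of which 14913 were protein-coding. Long-read RNA sequencing was applied to the adrenal gland of male mice of the strain B6CASTF1/J, offspring of a C57BL/6J and CAST/EiJ cross, at 4 days of age. The study holds 1 group with 2 replicates of 1 library each, replicate 1 with 688260 mouse reads and replicate 2 with 810645. In the labels the tissue descriptions give male 03 (replicate 1) and male 04 (replicate 2). Yet the library descriptions give male 03 for both, with the same donor identifier, so whether these are separate animals is not clear. The study has no contrast of conditions, and every comparison below is between these libraries or between genes within them.

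Mitochondria carry their own ribosome, which translates the few proteins encoded by the mitochondrial genome, all of them subunits of the respiratory chain and ATP synthase. The RNA of this ribosome comes from the mitochondrial genome, while its proteins are made from nuclear genes, translated in the cytosol and imported. Part of these proteins have counterparts in bacterial ribosomes, and part are found in mitochondria alone. The adrenal cortex, which makes steroids partly inside mitochondria, and the chromaffin cells of the medulla make up the gland. A level of a gene below is its reads as CPM, scaled to all mouse reads of the library so that 1 read is worth 1.45 CPM in replicate 1 and 1.23 CPM in replicate 2, summed over all its transcript models, and in whole tissue fewer cells of a type and less RNA per cell cannot be told apart.

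The transcript that departs most from the annotation is that of Mrpl33, and its sequence is shown first because its deposited model lacks an annotated exon and has a shifted splice site. Mrpl33 encodes a small protein of the large subunit and lies on the + strand of chromosome 5 (mm10, chr5:31596935-31664384). The annotated coding part of model Mrpl33-201, from start to stop codon (chr5:31614001-31622426), has the 19 bases of its second exon in capitals. The same stretch of the new model has in capitals the 8 bases by which the first exon was longer.
Mrpl33-201: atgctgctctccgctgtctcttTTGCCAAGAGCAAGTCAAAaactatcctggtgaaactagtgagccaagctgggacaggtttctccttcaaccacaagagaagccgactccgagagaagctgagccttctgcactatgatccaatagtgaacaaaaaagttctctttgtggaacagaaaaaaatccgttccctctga
new Mrpl33 model: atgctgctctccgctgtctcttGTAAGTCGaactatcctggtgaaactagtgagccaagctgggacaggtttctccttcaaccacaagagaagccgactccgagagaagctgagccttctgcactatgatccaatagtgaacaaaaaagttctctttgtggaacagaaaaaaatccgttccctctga
The next line gives the end of the first exon and the bases that follow it in the genome (chr5:31614013-31614038), with the 8 added bases in capitals. Both the annotated intron and the new one begin with GT.
first exon end: gctgtctcttGTAAGTCGgtctgagg

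All 78 genes had reads in both libraries, from 13 to 243 reads in replicate 1 (median 74) and from 20 to 334 in replicate 2 (median 90). Together they held 6261 reads in replicate 1 and 7815 in replicate 2, or 9097 and 9640 CPM, a mean of 9369 ± 384 CPM (SD, n = 2). This was 0.910% and 0.964% of the mouse reads. The 51 proteins of the large subunit accounted for 5860 and 6219 CPM, and the 26 of the small subunit for 3154 and 3323 CPM. The last member, Mrps36, is known as a part of the 2-oxoglutarate dehydrogenase complex and stood at 82.8 and 98.7 CPM.

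The levels of the members lay close together. The median was 106 CPM and the middle 50% of members lay between 82.7 and 152 CPM, a 1.84-fold range. The same range was 4.21-fold for the 8276 genes tested, those whose reads in both libraries sum to 20 or more. It was 1.95-fold for the mitochondrial aminoacyl-tRNA synthetases and 2.58-fold for the cytosolic ribosomal protein genes. For the assembly and translation factors listed below it was 3.24-fold and 4.17-fold, so a narrow range is not particular to the members. Mean levels of 66 members were between 50 and 200 CPM, those of 7 above and those of 5 below. Across the 78 genes, log2 CPM correlated between the libraries with a Pearson r of 0.897, a description over genes that share the same libraries and depth. As each read counts once whatever the length of its transcript, these levels compare molecules read. Lengths of the leading known models ran from 418 to 7300 bases (median 1302). Spearman's rho of mean CPM with this length was -0.10 over the members and -0.26 over 8067 tested genes with such a model. For Mrpl33 the leading known model, of 2741 bases, is not its most abundant model, which has 465. The part of length in the levels was not tested.

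**Figure D1:**
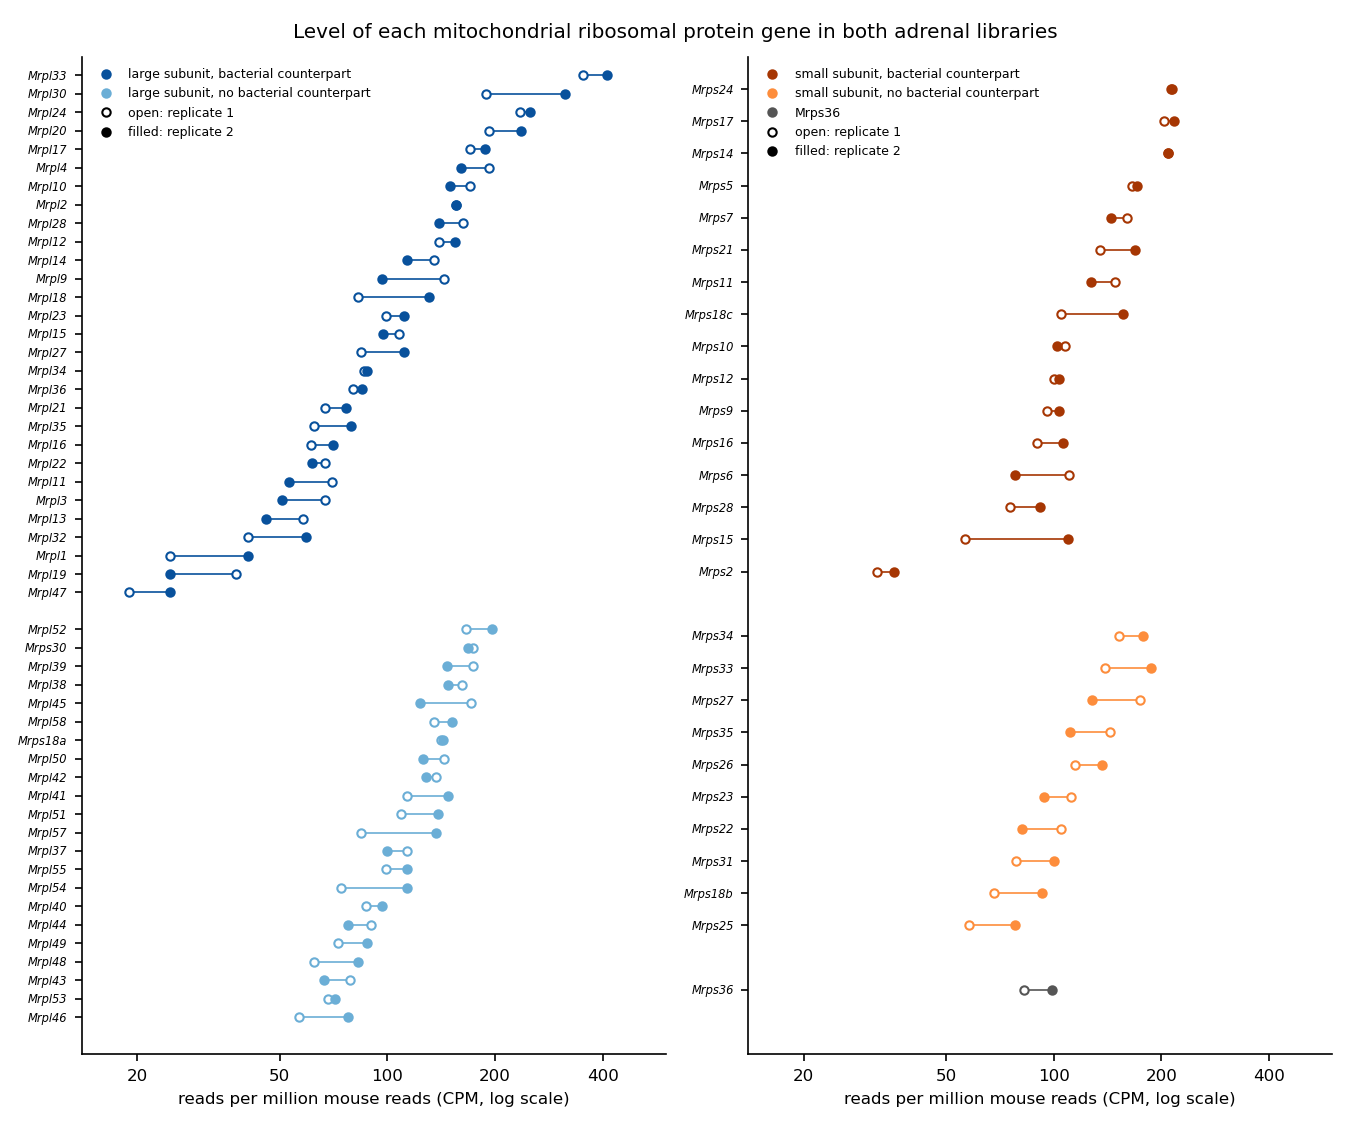
Level of each of the 78 genes in CPM on a log axis, large subunit on the left and small subunit on the right, with replicate 1 as open and replicate 2 as filled circles joined by a line. Most genes lie between 50 and 200 CPM in both libraries, with Mrpl33 at 353 and 412 CPM as the highest and Mrpl47 at 18.9 and 24.7 CPM as the lowest.

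Among the proteins with a bacterial counterpart, Mrpl33 was the most abundant, with 243 reads (353 CPM) in replicate 1 and 334 reads (412 CPM) in replicate 2. Mrpl30 followed at 189 and 313 CPM and Mrpl24 at 235 and 250 CPM. In both of these, more than 60% of the reads were not complete known transcripts, as described below. Counting complete known models alone, Mrpl30 stood at a mean of 81.0 CPM and Mrpl24 at 89.7 CPM. The median member stood at 106 CPM over all models, which is not the same measure. Mrpl20 reached 192 and 237 CPM, Mrpl17 170 and 188 CPM and Mrpl4 192 and 160 CPM.

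Small-subunit genes came next and differed little between libraries. Mrps24 gave 214 and 212 CPM, Mrps17 203 and 217 CPM, and Mrps14 209 and 208 CPM. Mrpl52, a protein of mitochondrial ribosomes alone, completed the 10 highest at 166 and 196 CPM. Mrps24, Mrps17 and Mrps14 all lay between 203 and 217 CPM and cannot be ranked, and the ranges of Mrpl52, Mrpl17 and Mrpl4 overlapped.

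Both proteins of the stalk that recruits translation factors were measured, Mrpl10 at 170 and 149 CPM and Mrpl12 at 139 and 154 CPM. Their partner at the base of the stalk, Mrpl11, was lower in both libraries with 48 and 43 reads, beside 117 and 121 for Mrpl10. Mrpl45, which sits near the exit of the nascent chain and binds the membrane, was at 171 and 123 CPM. Mrpl58, a peptidyl-tRNA hydrolase built into the large subunit, was at 135 and 152 CPM. Mrps12, the decoding-centre protein whose bacterial counterpart is the classic site of streptomycin resistance, was at 100 and 104 CPM, and Mrpl23 at 98.8 and 111 CPM.

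The related proteins Mrps18a, Mrps18b and Mrps18c occupy different places, Mrps18a in the large subunit and the others in the small one. Mrps18a was at 141 and 143 CPM, Mrps18c at 105 and 157 CPM and Mrps18b at 68.3 and 92.5 CPM. Mrps18b was the lowest of the 3 in both libraries, and Mrps18a and Mrps18c overlapped. Mrps30, a large-subunit protein despite its name, was at 173 and 168 CPM, the highest of the large-subunit proteins without a bacterial counterpart after Mrpl52 by mean level.

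The 5 least abundant members all have a bacterial counterpart. Mrpl47 had 13 and 20 reads (18.9 and 24.7 CPM), Mrpl19 26 and 20 reads (37.8 and 24.7 CPM) and Mrpl1 17 and 33 reads (24.7 and 40.7 CPM). Mrps2 had 22 and 29 reads and Mrpl32 28 and 48 reads. The mean of Mrpl33 was 17.6-fold that of Mrpl47. The values of Mrpl19 overlapped those of Mrpl1 and Mrps2, while both values of Mrpl47 lay below both of Mrps2.

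Proteins of the same ribosome named outside the rule had similar levels, except for the highest. Gadd45gip1, a large-subunit protein, was at 363 and 397 CPM, as abundant as Mrpl33. Aurkaip1 was at 163 and 212 CPM, Chchd1 at 77.0 and 111 CPM, and Dap3, the small-subunit protein that binds GTP, at 77.0 and 69.1 CPM. None of these 5 genes was called between the libraries. Of their reads together, 49.4% in replicate 1 and 54.4% in replicate 2 were complete known transcripts, beside 82.9% and 80.8% for the members.

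The 82 cytosolic ribosomal protein genes had a median of 533 CPM, with Rpl41 (1754 and 2275 CPM) and Rpl3 (1643 and 1697 CPM) among the highest. Lists of genes that act with the mitochondrial ribosome had lower medians than its proteins (106 CPM), though their highest genes lay above that value. Transcript lengths were not taken into account here. The 15 translation factors had a median of 28.9 CPM, with Slirp (169 and 205 CPM), Oxa1l (185 and 123 CPM) and Tufm (141 and 132 CPM) on top. Tufm encodes the elongation factor that brings aminoacyl-tRNA, and Oxa1l inserts new proteins into the inner membrane.

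The 22 assembly and rRNA modification factors had a median of 38.5 CPM, led by Mpv17l2 (157 and 180 CPM), Rbfa (189 and 136 CPM) and Grsf1 (109 and 69.1 CPM). For the 17 mitochondrial aminoacyl-tRNA synthetases the median was 44.7 CPM, led by Fars2 (155 and 132 CPM), Iars2 (108 and 98.7 CPM) and Cars2 (75.6 and 67.8 CPM). Of the mitochondrial genome, mt-Co1 was at 262 and 463 CPM, mt-Cytb at 85.7 and 173 CPM and mt-Nd1 at 43.6 and 78.9 CPM. These are its highest protein genes: the 13 had a median of 20.1 CPM, and 10 had reads in both libraries. Its ribosomal RNAs mt-Rnr1 and mt-Rnr2 had 4 reads each in replicate 1 and 9 and 17 in replicate 2. How well the libraries took up RNA of the mitochondrial genome was not tested, so these values do not rank it against nuclear genes.

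Between the libraries, 0 of the 78 members were called, against 3.23% of the 8276 genes tested (2.26% higher and 0.967% lower in replicate 2). Calls needed a Benjamini-Hochberg adjusted p under 0.05, over all tested genes, from Fisher's exact test of a gene's reads against the rest of the library. They also needed a log2 CPM ratio, with 0.5 CPM added, of 1 or more in either direction. The test takes in counting error alone and compares 1 library with 1 library, not animals, and as the reads carry no molecular identifiers they may repeat a molecule. Unadjusted p was under 0.05 for 11 members, or 14.1% of them, against 19.2% of all tested genes, and adjusted p alone was under 0.05 for 3, against 7.93% of all tested genes.

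Log2 ratios of replicate 2 over replicate 1 ran from -0.60 to 0.95 over the members, with 67 of 78 within 0.5 of 0. Of the members, 47 were above 0 and 31 below, and the median was 0.10, against -0.10 for all tested genes. The median of the large subunit was 0.09 and that of the small subunit 0.10. The highest ratio was that of Mrps15, a small-subunit protein, with 39 reads (56.7 CPM) in replicate 1 and 89 reads (110 CPM) in replicate 2, a log2 ratio of 0.95 ± 0.28 (counting SE) and an adjusted p of 0.0095 by Fisher's exact test. Mrpl30 followed with 130 and 254 reads, a log2 ratio of 0.73 ± 0.16 and an adjusted p of 6.5e-05 by the same exact test. Without the models that the files class as genomic, its ratio turned to -0.85, because the fragments of this gene were filed as genomic in replicate 2 alone.

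Mrpl57 had 58 and 111 reads, a log2 ratio of 0.70 ± 0.23 and an adjusted p of 0.035 by Fisher's exact test. Mrpl1 (0.71) and Mrpl18 (0.66) had adjusted p values of 0.42 and 0.065 by that exact test. On the other side were Mrpl19 (-0.60), Mrpl9 (-0.58), Mrps6 (-0.50), Mrpl45 (-0.47) and Mrps27 (-0.44), with adjusted p values from 0.084 to 0.52 by the exact test. Mrps15 was called with TMM scaling (log2 ratio 1.01) and with DESeq2 size factors (1.06). Mrpl1 and Mrpl19 rest on few reads, 17 and 33 for the former and 26 and 20 for the latter.

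**Figure D2:**
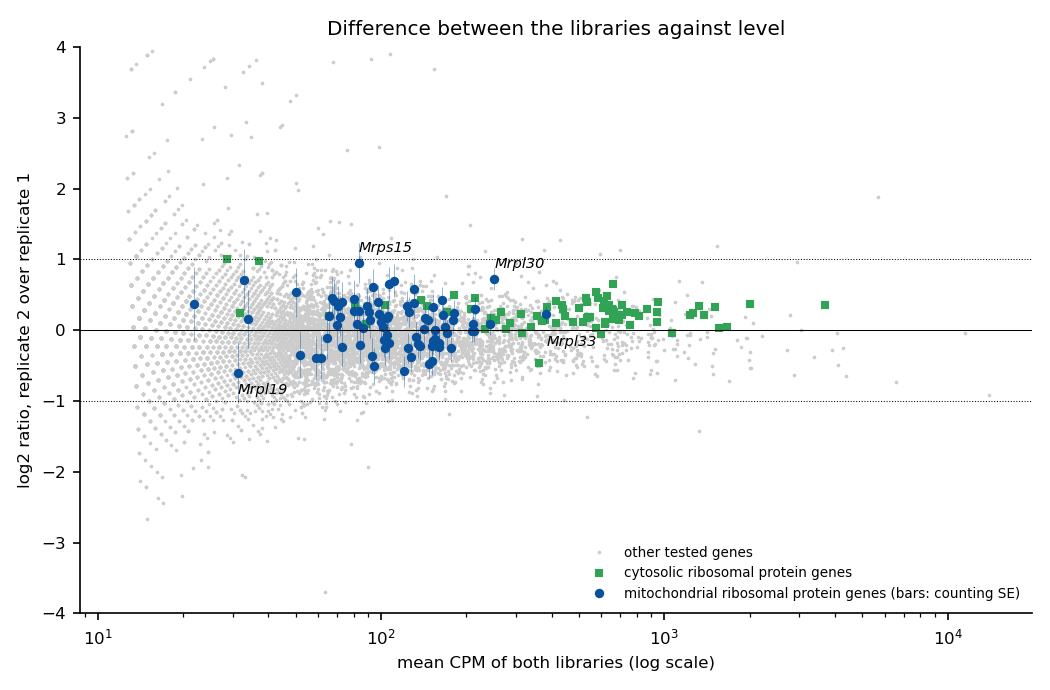
Log2 ratio of replicate 2 over replicate 1 against mean CPM (log axis) for all tested genes, with members in blue (bars are counting SE) and cytosolic ribosomal protein genes in green; 92 genes fall outside the plotted range. All members lie between the dotted lines at -1 and 1, and Mrps15 at 0.95 comes closest to one of them.

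The libraries also differ in tissue composition. All 10 of the 10 liver markers were called higher in replicate 2, with a summed level of 514 CPM in replicate 1 and 21304 CPM in replicate 2 and Serpina1a, the lowest, at 3 reads in replicate 1. The 5 adrenal cortex markers summed to 40434 and 27820 CPM and the 5 chromaffin markers to 12468 and 9258 CPM, and all 10 had reads in both libraries. In each of these 2 lists 0 of 5 were called, although all 5 log2 ratios were below 0. Adjusted p alone was under 0.05 for 4 of 5 in each, by Fisher's exact test. Red blood cell markers summed to 3670 and 7480 CPM with 3 of 5 called higher, brown fat markers to 1591 and 2255 CPM with 0 of 4 called, and striated muscle markers to 1181 and 1932 CPM with 0 of 3 tested genes called. The part of these markers in the ratios of the members was not tested.

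The lists around the ribosome were placed differently. Cytosolic ribosomal protein genes had a median log2 ratio of 0.24, with 75 of 79 tested genes above 0 and 0 called. The median of the translation factors was -0.30, with 10 of 15 below 0 and Mtfmt, which formylates the initiator tRNA, called lower in replicate 2 (16 and 4 reads, adjusted p 0.037 by Fisher's exact test). Of the 20 assembly factors tested, 14 were below 0 with a median of -0.48 and 0 were called. Of the 16 synthetases tested, 11 were below 0 with a median of -0.14 and 0 were called. Among the 9 tested protein genes of the mitochondrial genome the median was 0.85 and mt-Cytb was called higher (59 and 140 reads). No test of these lists against the members was made.

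**Figure D3:**
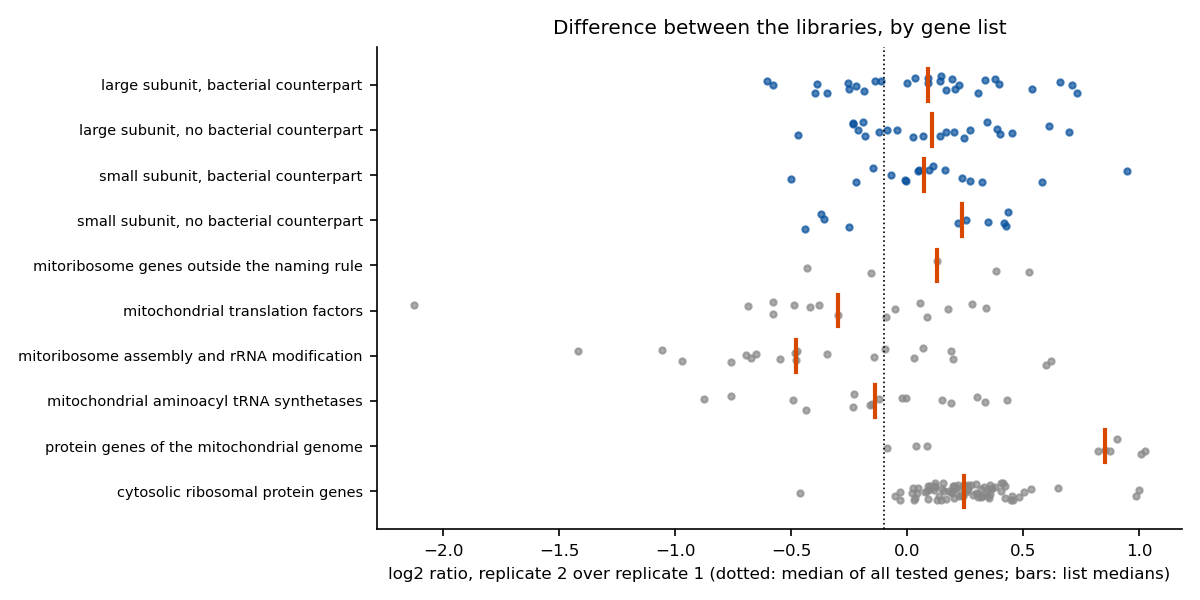
Log2 ratio of replicate 2 over replicate 1 for each tested gene (points) by list, with list medians as orange bars and the median of all tested genes (-0.10) as a dotted line. The 4 classes of members have medians between 0.07 and 0.24, the assembly factors a median of -0.48 and the protein genes of the mitochondrial genome one of 0.85.

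The log2 ratio was also set beside transcript length. Spearman's rho of log2 ratio with the length of the leading known model was -0.13 over the 78 members and -0.13 over 8067 tested genes with such a model, a description across genes. Members of up to 700 bases had a median log2 ratio of 0.17 (9 genes) and those of 1500 to 2500 bases one of -0.19 (10 genes), beside 0.24 and -0.20 for all tested genes of those lengths. The members above 2500 bases, 21 genes, had a median of 0.22, beside -0.14 for all tested genes of that length. That median is the log2 ratio of Mrpl33, placed there by the 2741-base retained-intron model Mrpl33-203, with 6 reads in each library. The most abundant model of Mrpl33 has 465 bases, so the median of this bin depends on that placement. The part of length in the difference was not tested.

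Most reads of the members were complete known transcripts. Their share was 82.9% (95% Wilson interval 81.9 to 83.8%) in replicate 1 and 80.8% (79.9 to 81.7%) in replicate 2, beside 77.0% and 73.9% for all protein-coding genes. The median member had 89.5% complete known reads, and 8 members had under 70%. Mrpl33 had the lowest share, 2.88% and 2.99%, and without it the share of the members was 86.1% and 84.3%. New splice sites gave 5.81% and 6.01% of the reads of all members, and 2.38% and 2.23% without Mrpl33, beside 3.52% and 3.36% for all protein-coding genes.

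**Figure D4:**
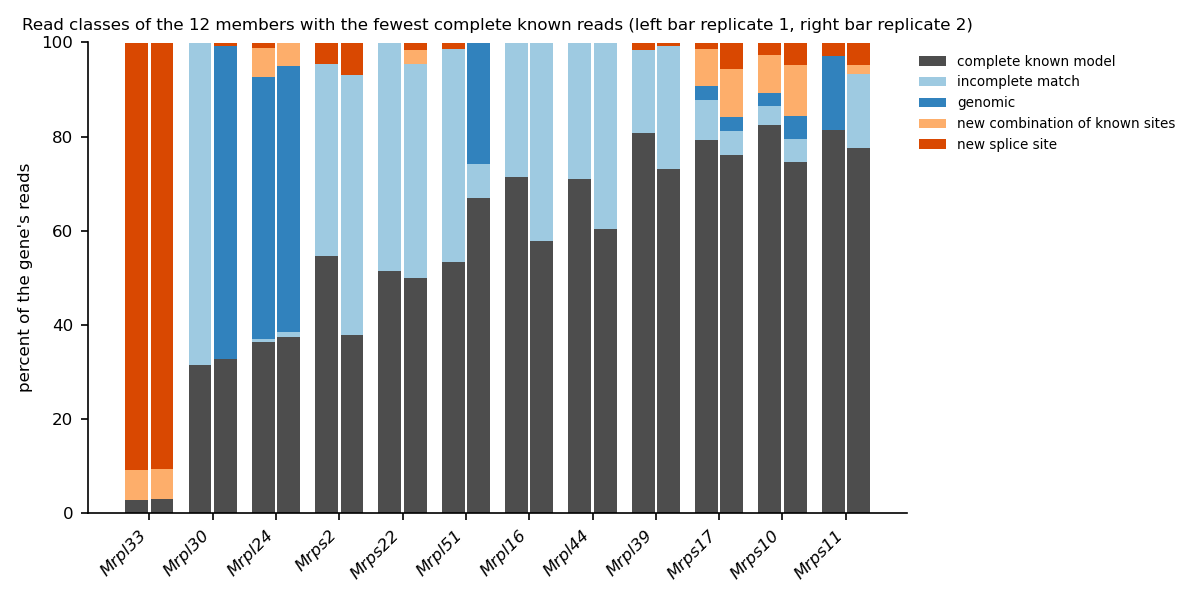
Share of each gene's reads by class for the 12 members with the fewest complete known reads, replicate 1 on the left and replicate 2 on the right of each pair. Mrpl33 stands apart with over 90% of its reads at new splice sites, while Mrpl30, Mrpl24 and Mrpl51 carry incomplete or genomic reads whose name changes between the libraries in Mrpl30 and Mrpl51.

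Reads of a single exon, filed either as incomplete matches or as genomic, made up 6.53% and 7.83% of the members' reads, beside 6.17% and 8.77% for all protein-coding genes. They were concentrated in few members: Mrpl30, Mrpl24, Mrpl51 and Mrpl20 held 237 of 409 such reads in replicate 1 and 345 of 612 in replicate 2. In Mrpl30, 88 of 130 reads (67.7%) and 169 of 254 reads (66.5%) lay within the last exon (mm10, chromosome 1, 37898061 to 37898338 in replicate 1 and 37898125 to 37898338 in replicate 2).

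In Mrpl24, 90 of 162 and 114 of 203 reads were assigned to a deposited genomic model that is 1 base long (chromosome 3, 87923316), so that its extent cannot be read. Of 14 members whose single-exon reads reached 5 in both libraries, 6 had them mostly under one class name in one library and under the other name in the other: Mrpl30, Mrpl51, Mrpl20, Mrps11, Mrps17 and Mrpl23. The summed share of such reads therefore compares between libraries, and the share of either class alone does not.

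For 53 members with at least 50 complete or new-splice reads in each library, the share of the leading model was compared by Fisher's exact test. None was called, against 0.41% of the 2440 genes tested (adjusted p under 0.05 and at least 10 points), and 4 members (7.55%) had an unadjusted p under 0.05, beside 177 of all genes tested (7.25%). The leading model held a median of 91.2% and 92.4% of these reads, beside 92.3% and 91.0% for all genes tested. A new model led in 1 of the 53, Mrpl33 (1.89%), beside 60 of the 2440 genes (2.46%).

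Of 349 new multi-exon models, 80 were found in both libraries and 234 rested on 1 read in all. Considering known models, the median member had 98.6% of its known reads on 1 coding sequence, and 69 of 78 members had at least 90%. Both values count Mrpl33 as 100%, although its 7 and 10 known reads were all on retained-intron models without a coding sequence. Another coding sequence reached 5 reads in 11 members. Known models annotated as protein-coding took 98.3% and 97.7% of the known reads, and retained-intron models took 63 and 114 reads.

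The leading model held under 60% in at least 1 library in 4 of the 53 members (7.55%), Mrpl55, Mrps10, Mrpl24 and Mrps17, beside 14.6% of all genes tested. In Mrpl24 all known reads were on models with 1 coding sequence of 648 bases, and in Mrps17 110 of 111 and 131 of 134 known reads were on models with 1 of 360 bases. Mrpl24-202 had 34 and 44 reads, Mrpl24-201 14 and 11, Mrpl24-204 8 and 13, and a new combination 9 and 5. Mrps17-201 had 64 and 86 reads, Mrps17-205 25 and 21, and a new combination 10 and 16. In Mrpl57 the model Mrpl57-202, a single exon annotated as a retained intron, took 10 and 23 reads.

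Mrps10 and Mrpl55 each used a pair of neighbouring acceptor sites inside the coding part, and their exon junctions are shown for that reason. In capitals are the bases present only with the upstream acceptor, 3 in Mrps10 and 21 in Mrpl55, both multiples of 3, with 15 bases on either side (mm10, + strand, chr17:47372477-47372590 and chr11:59204241-59204570).
Mrps10 upstream acceptor: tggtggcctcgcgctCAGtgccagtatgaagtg
Mrps10 downstream acceptor: tggtggcctcgcgcttgccagtatgaagtg
Mrpl55 upstream acceptor: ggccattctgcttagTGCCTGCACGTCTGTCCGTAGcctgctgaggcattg
Mrpl55 downstream acceptor: ggccattctgcttagcctgctgaggcattg
In Mrps10, a small-subunit protein, the upstream site was used by 31 of the 67 reads at this junction in replicate 1 (46.3%) and 31 of 74 in replicate 2 (41.9%), so both coding sequences, of 603 and 600 bases, were present in each library. In Mrpl55 the upstream site was used by 20 reads against 35 in replicate 1 (36.4%) and by 15 against 70 in replicate 2 (17.6%). The share of model Mrpl55-201, without the 21 bases, was 34.8% in replicate 1 and 58.9% in replicate 2, the widest difference of the 53 members, with an unadjusted p of 0.0036 and an adjusted p of 0.28 by Fisher's exact test. A second pair of acceptors of Mrpl55, 3 bases apart outside the coding part, had 42 reads at the upstream site against 14 in replicate 1 and 63 against 18 in replicate 2.

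Other coding variants were in the minority in both libraries. Mrpl58-202, with 531 coding bases in place of 618, had 16 and 14 reads beside 68 and 96 for Mrpl58-209. Mrpl11-204 had 5 and 4 reads beside 42 and 36 for Mrpl11-201. New models found in both libraries included 1 of Mrpl15 (4 and 11 reads), 1 of Mrpl55 with 2 exons (9 and 4 reads), 1 of Mrps21 (7 and 4 reads) and 1 of Mrps14 (2 and 8 reads).

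For Mrpl33 the new intron runs from 31614031 to 31616380, between the first exon with 8 added bases and the third exon, and passes over the 19-base exon (31614603 to 31614621). It was held by 210 of 243 reads in replicate 1, 86.4% (95% Wilson interval 81.5 to 90.2%), and by 288 of 334 reads in replicate 2, 86.2% (82.1 to 89.5%). The most abundant model had 209 and 286 reads. No read of either library was assigned to a complete Mrpl33-201. By counting error alone, a count of 0 allows up to 3 reads so assigned, or 4.36 and 3.70 CPM. This bounds the reads given that model and not the level of the transcript, as reads with the new intron may or may not carry the 19 bases.

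The 19-base exon was present in 12 reads (4.94%) and 19 reads (5.69%), mostly after other first exons. Models with a further donor downstream in the first intron and the 19-base exon had 5 and 6 reads and 3 and 8 reads. The annotated donor joined directly to the third exon in 1 read of each library. Models that start at an upstream first exon, 16917 bases before the main one, had 13 and 16 reads, of which a new combination without the 19-base exon had 6 and 7. Retained-intron model Mrpl33-203 had 6 reads in each library.

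Between the start codon and the annotated stop the new model is 11 bases shorter, 187 against 198, and 11 is not a multiple of 3. Read from the same start codon, its first in-frame stop comes after 42 codons against 65 in Mrpl33-201, and the first 7 codons are shared. The files hold exon coordinates and no read sequences, so whether the reads carry the 19 bases cannot be told.

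Short exons of other genes give the measured context. Over all genes, exons present in every protein-coding model that spans them and spanned by at least 10 reads in each library were counted as included where a model had the exact exon. All 16 exons of up to 15 bases were included in under 10% of reads, with a median of 0%. Of 25 exons of 16 to 20 bases, 9 were under 10% and 12 at 90% or more. Under 10% fell 8 of 143 exons of 21 to 27 bases (5.59%) and 18 of 27772 exons of 61 to 150 bases (0.065%).

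In exons of 16 to 20 bases, 2306 reads that passed over the exon used a splice site other than the annotated ones on at least 1 side, and 60 used both annotated sites. Mrpl33 gave 524 of the former and 2 of the latter. Its exon was the only one of the 166 such exons in members, of up to 150 bases, under 10%, while 163 of the 166 were at 90% or more. The next shortest, a 31-base exon of Mrps9 and a 32-base exon of Mrps18a, were in all 144 and all 200 spanning reads. The part of exon length in the new intron was not tested.

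**Figure D5:**
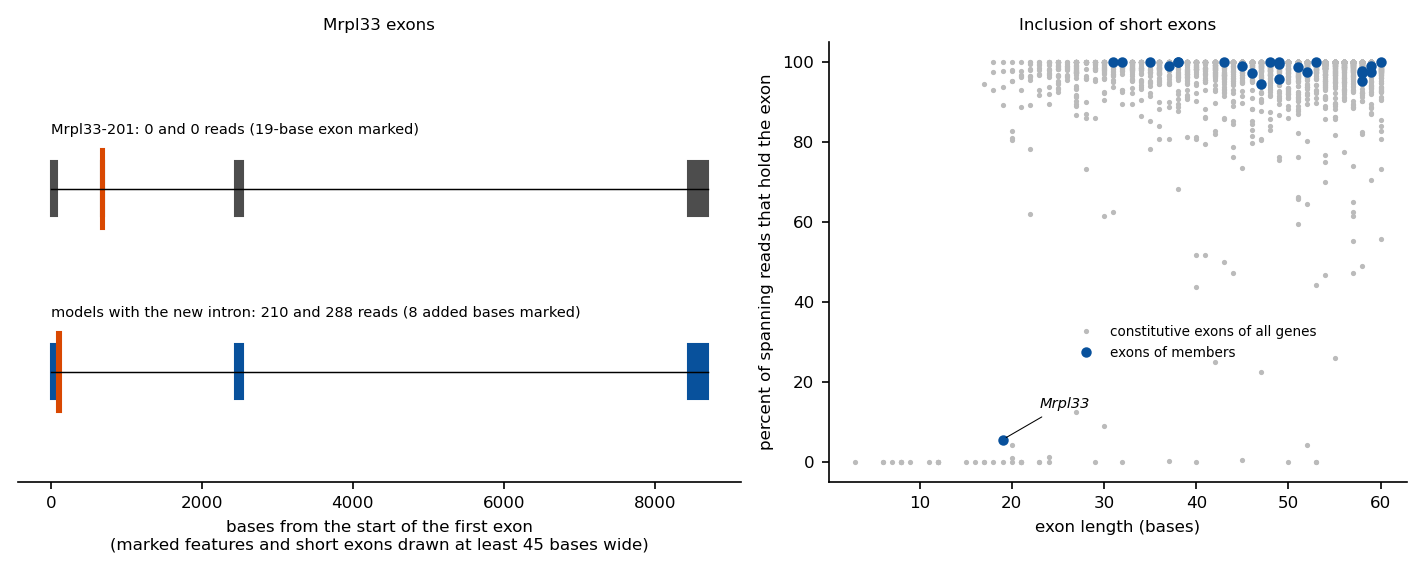
Left, exons of Mrpl33-201 and of the new model by distance in bases from the start of the first exon, with the 19-base exon and the 8 added bases marked in orange. Right, percent of spanning reads that hold a constitutive exon against its length, all genes in grey and members in blue: the Mrpl33 exon is at 5.54%, while the other exons of members up to 60 bases are at 94.7% or more.

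The members lie on 17 chromosomes, 11 of them on chromosome 11 and 8 on chromosome 17. A gene on the opposite strand starts within 1000 bases of the start of 23 members (29.5%), beside 11.6% of the 22028 annotated protein-coding genes. All members had reads, whereas only 14913 protein-coding genes did, and the share among genes with reads was not computed. Of these partners 19 are protein-coding and of varied function, among them Sars2, which charges mitochondrial serine tRNA (172 bases from Mrps12), Psma2, a proteasome subunit (75 bases from Mrpl32), Helq, a DNA helicase (29 bases from Mrps18c), and Fau, which encodes a cytosolic ribosomal protein (59 bases from Mrpl49).

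Reads of such pairs differed widely. Mrps12 had 69 and 84 reads and Sars2 22 and 32, whereas Mrpl49 had 50 and 71 and Fau 314 and 402. Mrpl30 had 130 and 254 reads, of which 41 and 83 were complete known transcripts, and its partner Mitd1 had 13 and 10. A shared start region thus went with levels of either order.

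Promoter windows of 300 bases, 250 before and 50 after each start, were found for 69 of the 78 members in a RefSeq table (GRCm38.p6). The letters CCGGAAG, the core bound by GABP and other ETS factors, stood on either strand in 26 members (37.7%), beside 22.7% of the 6337 tested protein-coding genes in the table and 9.93% of all its 27025 genes. AAGATGGC, the core bound by YY1, stood in 12 members (17.4%), beside 6.26% and 3.19%. On the gene's own strand it was centred 15 bases after the start in Mrps18a, 22 in Mrps7, 27 in Mrpl35 and 40 in Mrps24. In others, such as Mrpl36 and Mrps11, it lay before the start on the opposite strand. The letters hold ATG, and whether a match covers the start codon was not tested. The palindrome bound by NRF1, with its middle base left free, stood in 13 members (18.8%), beside 13.03% and 5.19%, and its stricter form, contained in the first, in 3. A motif of at least 1 of these 3 factors was in 43 members (62.3%), beside 36.7% of the tested protein-coding genes.

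Of 31 matches of CCGGAAG, 23 lay within 50 bases of the start. Matches near the start are shown for Mrpl33, the most abundant member, for Mrps12 and for Mrpl52, with the motif in capitals and 10 bases on each side (chr5:31613938-31613964, chr7:28741804-28741830 and chr14:54426901-54426927).
Mrpl33 start: cgcgcatgccCCGGAAGtagtcgttga
Mrps12 start: aggaggaaccCCGGAAGgggctggagg
Mrpl52 start: gccacgcccaCTTCCGGttcccttgct
The match in Mrpl52 is on the opposite strand, and a match of letters is no measure of binding.

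Annotated genes overlap 42 members, 36 of them on the opposite strand. Mrpl46 and Mrps11, both members, overlap by 413 bases on opposite strands of chromosome 7 and had 39 and 63 reads and 102 and 103 reads. On its own strand, Mrps6 overlaps Slc5a3, a myo-inositol transporter gene that had 0 and 2 reads. Mrps34 overlaps Nme3 on the same strand over 1003 bases, with 105 and 144 reads beside 32 and 28. How reads were split where models overlap is not given in the sources used here, so such members carry that uncertainty.

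Models on the strand opposite to members held 27 and 75 reads, 0.431% and 0.960% of the members' own reads, beside 3.15% and 4.63% for all protein-coding genes. This count does not take in annotated genes of the opposite strand. Tcp1, which overlaps Mrpl18, had 193 and 158 reads, beside 3 and 2 counted at Mrpl18. The most counted reads were at Mrps6, with 0 and 9. The processed pseudogene Mrpl23-ps1 on chromosome 2 had 30 and 39 reads, beside 68 and 90 for Mrpl23. Mrps36-ps1 on chromosome 17 had 1 and 2, beside 57 and 80 for Mrps36. Reads of near-identical copies may be split between gene and pseudogene, so Mrpl23 is uncertain to that extent.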

How the data were processed

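Long reads were measured in 2 libraries. Per the file headers and the descriptions deposited with them, the authors gave raw counts of reads per transcript model, not normalized, on mm10 with GENCODE mouse release M21, named by TALON; the aligner, its version and any filters are not stated in the labels or headers. Members and lists were chosen with earlier results of these data known. Reads were summed per gene over all models and scaled to mouse reads (spike-in sequences left out). Fisher's exact tests ran over all genes with at least 20 reads, and for the leading model over all with at least 50 complete or new-splice reads per library; new models were matched by intron chain. Tests were checked on simulated counts. Python 3.11.15 with scipy 1.17.1, edgeR 4.0.16 and DESeq2 1.42.0 (scaling alone) were used.

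Named were the 10 highest and 5 lowest members, the 5 largest ratios each way, members with a leading share under 60%, the 10 most abundant new models in both libraries, a fixed list by role or locus, and the 3 highest and the called genes of other lists (1 of these is not reported here); other names were chosen after their values were seen. Mrpl55, misplaced in the class list written at the start, was moved to the proteins without a bacterial counterpart. Alternatives were other scalings, minimums, pseudocounts and model classes.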

Additional observations from a re-analysis of the deposited data

How the results depend on the processing

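The summed level of the members was 9369 CPM, and 8932 CPM without genomic models, 7665 CPM from complete known models alone and 8694 CPM without single-exon fragments, an alternative chosen after seeing the data; leaving out 1 library gave 9097 to 9640 CPM. Members called between the libraries numbered 0, 1 with TMM scaling, 1 with DESeq2 size factors (Mrps15 each time) and 3 with no size threshold (Mrpl30, Mrpl57 and Mrps15). Of the 8276 tested genes, 3.23%, 3.17%, 3.09% and 7.93% were called in these settings, in the same order. DESeq2 size factors shifted the median of all tested genes from -0.10 to 0.01 and that of the members to 0.21, with 53 members above 0 and 25 below. The share of complete known reads was 81.8%, 85.8% without genomic models in the denominator and 80.8 to 82.9% with 1 library left out. Leading-model calls rose from 0 of 53 members to 5 of 60 (Mrpl20, Mrpl30, Mrpl36, Mrpl51 and Mrps11) with incomplete matches in the denominator. In that setting 74 of 2684 genes (2.76%) were called. Single-exon reads of these 5 members were filed as incomplete matches in 1 library and as genomic in the other. For them this denominator therefore does not compare between the libraries. The ratio of Mrpl30 turned to -0.85 without genomic models and was 0.78 without single-exon fragments of either name. The Mrpl33 intron share lay between 86.2 and 86.4% with 1 library left out. No paired analysis was possible because there is 1 group. With 74 and 90 reads for the median member, counting error limits which differences could be called at this depth.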
